A study of Homo sapiens with 10 samples.

Results

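The genes described here make, carry, break down and sense retinoic acid. They are ALDH1A1, ALDH1A2 and ALDH1A3 (synthesis), CYP26A1 and CYP26B1 (breakdown), CRABP1 and CRABP2 (binding in the cytoplasm), and RARA, RARB and RARG (receptors). These 10 genes were taken by symbol from the 28265 gene symbols counted, and they were followed over time in bulk RNA-seq libraries of the NKX2-1 GFP+ fraction of human thyroid organoids. Successive dehydrogenase steps turn retinol, or vitamin A, into retinoic acid, and the ALDH1A enzymes carry out the last one. CRABP proteins bind retinoic acid inside the cell, CYP26 enzymes oxidise it to inactive products, and RARs pair with RXRs on DNA to switch target genes on when the ligand is bound. In the embryo, retinoic acid patterns the foregut along its length, and *RARB* and *CYP26A1* are themselves among its best-known targets.

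All libraries came from ESIBIe003-A-6, a line derived from the human ESC line HES3 by selection of clones. It carries GFP at 1 *NKX2-1* allele and lentiviral *NKX2-1* and *PAX8* transgenes that doxycycline switches on. Cells had received Activin A and then doxycycline before the first time point, so every group shares both, and material from several wells was pooled for each sample. There were 2 libraries at each of days 16, 23, 31, 38 and 45, 10 in all, with 7247268 to 10333933 counts per library. Day 16 cells had been in basal medium by the paper's schedule, although their labels name cAMP. Day 23 and day 31 cells were labelled as treated with cAMP (8-br-cAMP, a cell-permeable analogue of the second messenger), and the schedule changes the medium just before day 31. Day 38 cells had received hrTSH (recombinant human TSH) with dexamethasone, a glucocorticoid. Day 45 cells had in addition received SB431542, an inhibitor of TGFβ receptor kinases, and their labels do not mention dexamethasone. The paper's dates for the start of SB431542 differ, day 38 or the day before. Day 38 cells may therefore have received it briefly, although their labels do not name it. The culture medium contained fetal bovine serum, and the methods name no retinoid among the additions. Day and medium change together, so their effects cannot be told apart. Libraries of cells kept on cAMP to days 38 and 45 were not analysed here.

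Transcripts of genes that serve as thyroid markers were found in the sorted cells at every time point. *NKX2-1* ranged from 62.4 CPM (day 45) to 154 CPM (day 31) in daily means, where CPM is the count scaled to library size with TMM factors, and *PAX8* from 503 to 650 CPM. Exons of other genes overlap those of both, so their counts are uncertain. *TG*, which encodes thyroglobulin, was at 10.6 and 11.7 CPM on day 16 and at 7960 and 7520 CPM on day 45. Transcripts of mesenchymal genes were also present, with *COL3A1* at 309 to 2140 CPM over the libraries. In bulk samples, fewer cells of a type and less RNA per cell cannot be told apart.

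RAR and RXR pairs bind paired half-sites in DNA, and the promoters were searched for their letters. The promoter windows of all genes in RefSeq (GRCh38.p14, 250 bases before to 50 after each start) were searched on both strands for a DR5 element, defined as 2 half-sites in the same direction with 5 bases between them. A half-site was AGGTCA or AGTTCA or GGGTCA or GGTTCA. All 10 genes were matched, with 17 windows among them. A DR5 was found in 31 of 35116 windows (0.0883%) and in 2 of the 17, one of *RARB* and one of *CYP26A1*. The 2 windows are shown because they place the classical element of the pathway in front of a receptor and of a breakdown enzyme, and the capitals mark the DR5. The *RARB* window lies at chr3:25428013-25428312 on the plus strand, with the element from -53 to -37 relative to the start. The *CYP26A1* window lies at chr10:93073643-93073942 on the plus strand, with the element from -90 to -74, where the half-sites read on the opposite strand.
RARB: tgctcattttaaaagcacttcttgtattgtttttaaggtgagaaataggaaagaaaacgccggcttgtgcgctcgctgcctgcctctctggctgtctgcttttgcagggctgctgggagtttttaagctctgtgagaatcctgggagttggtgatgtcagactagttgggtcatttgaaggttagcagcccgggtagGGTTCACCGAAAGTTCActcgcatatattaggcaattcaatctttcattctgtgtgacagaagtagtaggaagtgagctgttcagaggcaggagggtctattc
CYP26A1: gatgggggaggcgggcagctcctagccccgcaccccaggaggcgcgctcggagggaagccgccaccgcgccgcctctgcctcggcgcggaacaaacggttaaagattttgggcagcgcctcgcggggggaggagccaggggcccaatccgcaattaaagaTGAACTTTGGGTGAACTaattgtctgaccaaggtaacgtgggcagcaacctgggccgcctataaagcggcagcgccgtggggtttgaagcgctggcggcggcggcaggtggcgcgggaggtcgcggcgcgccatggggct
Elements with 1 base between the half-sites (DR1) or with 2 bases (DR2) were found in 0.131% and 0.0399% of all windows and in 0 of the 17. A match describes letters in a window and does not show binding. *RARB* and *CYP26A1* are known targets and DR5 is the classical element. The 2 matches could therefore be foreseen and are not read as an enrichment among these genes.

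The genes of the pathway were present at very different levels. Scaled by annotated exon length (CPM per kb), *CRABP2* stood first on all 5 days, with daily means from 68.3 to 195 CPM per kb. *ALDH1A1* was second until day 31, at 9.32 to 34.4 CPM per kb, and took the third place from day 38, when *CRABP1* had passed it with 35.3 CPM per kb on day 38 and 70.6 on day 45. By this measure *RARA* was the most abundant receptor on every day, at 4.92 to 10.5 CPM per kb. The order depends on the lengths, which pool all annotated exons of a gene (4743 bases for *RARA*, 9445 for *RARB*). Without them *RARB* was the higher on day 16, with daily means of 29.8 CPM and, for *RARA*, 23.3 CPM. At day 16 the libraries overlapped for neighbours in the order from *CRABP1* to *RARG* and from *CYP26A1* through *CYP26B1* and *ALDH1A2* to *ALDH1A3*. At day 23 they overlapped for *CYP26B1*, *CRABP1* and *RARG* and for *CYP26A1* and *ALDH1A3*. At day 31 they overlapped for *RARB* and *CYP26B1* (4.26 and 4.25 CPM per kb), for *RARG* and *ALDH1A2*, and from *CYP26A1* through *CRABP1* to *ALDH1A3*. They overlapped for *ALDH1A3* and *ALDH1A2* on day 38 and for *RARG* and *RARB* on day 45. The first 3 places did not overlap between libraries on any day.

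**Figure D1:**
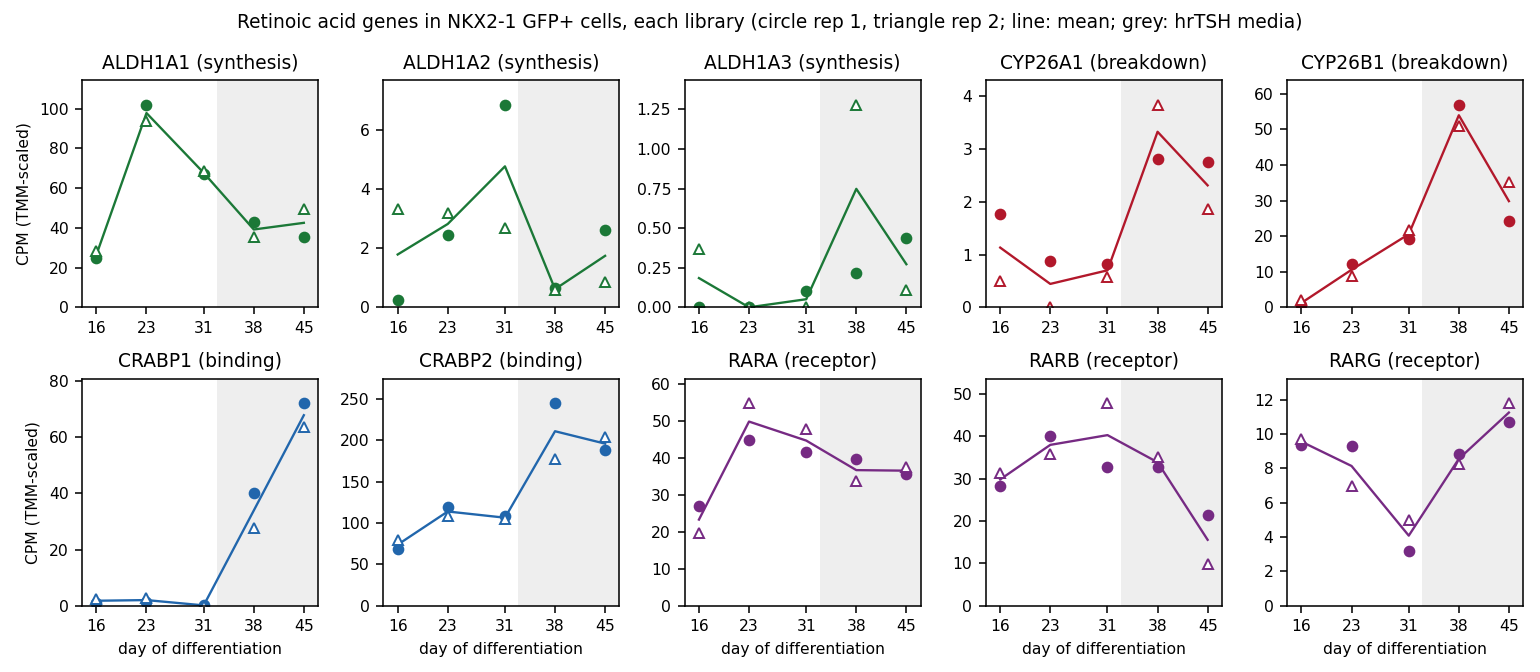
TMM-scaled CPM of the retinoic acid genes (y axis, starting at 0, with a separate scale for each gene) against day of differentiation (x axis). Each symbol is 1 library (circle replicate 1, triangle replicate 2) and the line joins the 2-library means. Grey marks the days with labels that name TSH, on which *CRABP1* reached 27.5 to 72.0 CPM. By the paper's schedule the medium changed just before day 31, ahead of the grey.

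Of the 10 genes, 9 passed the filter on low counts and were tested among 21014 genes. By the quasi-likelihood test of edgeR, adjusted by Benjamini-Hochberg, 6 of these 9 differed between days (*ALDH1A1*, *CYP26B1*, *CRABP1*, *CRABP2*, *RARA* and *RARB*), against 36.3% of all genes tested. *RARG* (adjusted p = 0.15), *ALDH1A2* (0.27) and *CYP26A1* (0.38) did not pass this edgeR test. The call of *RARA* was lost without day 16 replicate 2 (edgeR adjusted p = 0.057) and that of *RARB* without day 45 replicate 2 (0.13). From day 16 to day 23, 4 of 9 passed and all 4 were higher, where 10.9% of all genes passed (5.60% higher and 5.33% lower). From day 23 to day 31, 1 of 9 passed and was lower, where 2.25% of all genes passed (1.58% higher and 0.666% lower). From day 31 to day 38, 3 were higher and 1 lower, where 15.0% of all genes passed (8.80% higher and 6.23% lower). From day 38 to day 45, 1 was higher and 1 lower, where 11.2% of all genes passed (4.85% higher and 6.35% lower). Between the end points, day 45 against day 16, 5 were higher and 1 lower, where 24.6% of all genes passed. The median log2 fold changes of the 9 genes in these 5 comparisons were 0.63, -0.10, 0.99, -0.01 and 0.69, beside medians of all genes between -0.02 and 0.00. Comparisons that follow each other share a day's libraries and are not independent.

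Among the synthesis enzymes, *ALDH1A1* (chr9:72900671-73080442) made up nearly all of the ALDH1A transcripts, 97.5 to 99.0% of the 3 genes per length in daily means. Its libraries gave 24.8 and 28.1 CPM on day 16, 102 and 93.5 on day 23, 66.9 and 68.4 on day 31, 42.8 and 35.5 on day 38, and 35.6 and 49.4 on day 45. Both day 23 libraries were above all others, both day 16 libraries were below all others, and those of days 38 and 45 overlapped. *ALDH1A1* rose from day 16 to day 23, with a log2 fold change of 1.88 ± 0.21 (SE, edgeR adjusted p = 4.7e-08). It was lower on day 31 than on day 23 by a log2 difference of -0.53 that did not pass (edgeR adjusted p = 0.22), and it fell from day 31 to day 38 by 0.79 ± 0.20 in log2 units (edgeR adjusted p = 0.0059). That fall was lost when day 38 replicate 2 was left out, at -0.66 with an edgeR adjusted p of 0.14. At day 45 it was still above day 16, by 0.69 ± 0.21 in log2 units (edgeR adjusted p = 0.014), a call lost without day 16 replicate 1 (0.086) and without day 45 replicate 2, where the log2 fold change was 0.43 (adjusted p = 0.25).

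The other ALDH1A genes were far less abundant. *ALDH1A2* (chr15:57953424-58497866), the main retinoic acid enzyme of embryonic mesoderm, had 2 and 27 counts on day 16, 22 and 28 on day 23, 67 and 23 on day 31, 6 and 5 on day 38, and 18 and 8 on day 45. The replicates of day 16 were far apart, and both day 38 libraries were lower than both day 31 libraries. Between days 31 and 38 its log2 fold change was -2.93 ± 1.17 and did not pass (edgeR adjusted p = 0.093). Exons of *AQP9* and *ALDH1A2-AS1* overlap it on the other strand, and the strand setting of the counting is not given in the sources used here, so its counts are uncertain. *ALDH1A3* (chr15:100877714-100916626, overlapped by *ALDH1A3-AS1*) had 3 or fewer counts in 9 of 10 libraries and 11 in day 38 replicate 2. It failed the filter and was not tested, and a floor of 3 counts corresponds to 0.307 to 0.435 CPM in these libraries.

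Of the breakdown enzymes, *CYP26B1* rose up to day 38 and *CYP26A1* was scarce throughout. *CYP26B1* (chr2:72129238-72147862), which clears retinoic acid in many embryonic tissues, gave 0.507 and 1.97 CPM on day 16, 12.2 and 8.91 on day 23, 19.3 and 21.8 on day 31, 57.0 and 51.0 on day 38, and 24.4 and 35.3 on day 45. No library of one day overlapped with a library of another day, and day 38 was the highest. *CYP26B1* rose from day 16 to day 23 by 3.07 ± 0.43 in log2 units (edgeR adjusted p = 2.8e-06) and again from day 31 to day 38 by 1.39 ± 0.32 (edgeR adjusted p = 0.0017). The first of these rises ran from 2.43 to 4.34 without 1 library. The day 23 to day 31 difference of 0.96 did not pass (edgeR adjusted p = 0.15), nor did the difference of -0.85 ± 0.31 from day 38 to day 45 (0.076). The latter difference passed with the replicate number as a block, at -0.87 (edgeR adjusted p = 0.035). It also passed with no filter and with the 4 libraries compared alone. Without 1 library it ran from -1.15 to -0.61. Day 45 stood 24.1-fold above day 16 in mean CPM (log2 fold change 4.57 ± 0.42, edgeR adjusted p = 9.7e-11). Day 16 held only 4 and 16 counts, and that log2 fold change was 3.9 without day 16 replicate 1 and 5.84 without replicate 2.

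*CYP26A1* (chr10:93073475-93077885), which protects the embryo from excess retinoic acid, had 14 and 4 counts on day 16, 8 and 0 on day 23, 8 and 5 on day 31, 26 and 33 on day 38, and 19 and 17 on day 45. The libraries of days 38 and 45 were all higher than those of the 3 earlier days. From day 31 to day 38 the log2 fold change was 2.22 ± 1.41, which did not pass (edgeR adjusted p = 0.34). An unnamed gene on the same strand shares exon sequence with it, and its counts are uncertain for that reason. From day 23 on, *CYP26B1* made up 88.3 to 94.7% of the 2 genes' transcripts per length in daily means.

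The binding proteins held the largest change of the pathway. *CRABP1* (chr15:78340353-78348225), a cytoplasmic carrier of retinoic acid, had 8 and 21 counts on day 16, 13 and 23 on day 23, and 3 and 0 on day 31. It then had 372 and 236 counts on day 38 and 496 and 581 on day 45, or 40.2 and 27.5 CPM and 72.0 and 63.4 CPM. The 6 libraries of days 16 to 31 were at 2.63 CPM or lower, the 4 of days 38 and 45 were at 27.5 CPM or higher, and those of days 38 and 45 did not overlap. From day 31 to day 38 *CRABP1* rose at least 103-fold over a floor of 3 counts per library (edgeR adjusted p = 3.3e-12). From day 16 to day 45 the fold of mean CPM was 37.6 (log2 fold change 5.22 ± 0.43, edgeR adjusted p = 9.2e-12). That log2 fold change was 4.69 without day 16 replicate 1 and 6.04 without replicate 2.

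The calls of the smaller steps of *CRABP1* did not hold without some libraries. From day 23 to day 31 it fell at least 6.2-fold (edgeR adjusted p = 0.0041), a call lost without day 23 replicate 2 (0.095) or day 31 replicate 2 (0.11) and in a fit of only those 4 libraries (0.47), while the log2 fold change, -3.53 with all libraries, ran from -7.12 to -2.68. From day 38 to day 45 it rose by 1.00 ± 0.34 in log2 units (edgeR adjusted p = 0.048), a call lost when any of the 4 libraries was left out, with adjusted p from 0.10 to 0.46 and log2 fold changes from 0.75 to 1.30. An unnamed gene on the opposite strand overlaps its exons.

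*CRABP2* (chr1:156699606-156705816), which hands retinoic acid to RARs, gave 68.3 and 79.5 CPM on day 16, 120 and 108 on day 23, 108 and 105 on day 31, 245 and 177 on day 38, and 188 and 204 on day 45. Day 16 was the lowest, days 38 and 45 were the highest and overlapped, and the replicates of day 38 were further apart than those of the other days. *CRABP2* rose from day 16 to day 23 by 0.63 ± 0.16 (log2, edgeR adjusted p = 0.006), a call lost without day 23 replicate 1 (0.54, adjusted p = 0.094). It rose from day 31 to day 38 by 0.99 ± 0.15 (log2, edgeR adjusted p = 1.1e-05), and day 45 was above day 16 by 1.41 ± 0.16 (edgeR adjusted p = 8.3e-09).

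Markers of thyroid and of other cells were read over the interval in which the CRABP genes and *CYP26B1* rose. From day 31 to day 38, 15.0% of all genes passed (8.80% higher and 6.23% lower). The 10 mesenchymal markers summed to 1920 and 2250 CPM on day 31 and to 4550 and 4740 CPM on day 38, and 4 of the 10 were higher on day 38 (*COL1A1*, *COL1A2*, *COL3A1*, *PDGFRA*) and 2 lower (*LUM*, *POSTN*). The 8 neural markers summed to 35.0 and 41.2 CPM on day 31 and to 37.7 and 43.3 CPM on day 38, with *TUBB3*, the most abundant, higher and *ELAVL4* lower by the same edgeR test. The 11 thyroid markers summed to 2650 and 2610 CPM on day 31 and to 8940 and 8030 CPM on day 38, of which *TG* held 200 and 211 and then 5550 and 4870, and 5 of 11 were higher and 0 lower. The lung and airway markers summed to 539 and 563 CPM on day 31 and to 68.9 and 59.8 CPM on day 38, with *SFTPB* and *FOXJ1* lower and *MUC5AC* higher. The part of these cells in the change of *CRABP1*, *CRABP2* and *CYP26B1* was not tested.

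Of the receptors, *RARA* (chr17:40309180-40357643) gave 27.0 and 19.7 CPM on day 16, 44.9 and 54.9 on day 23, 41.7 and 47.8 on day 31, 39.7 and 33.8 on day 38, and 35.7 and 37.5 on day 45. The day 16 libraries were below all others, and the later days lay within 33.8 to 54.9 CPM with overlaps between days 23 and 31 and between days 38 and 45. *RARA* rose from day 16 to day 23 by 1.09 ± 0.24 (log2, edgeR adjusted p = 0.0017), and no later step passed. The difference between days 45 and 16 was 0.65 ± 0.24 (edgeR adjusted p = 0.046) and dropped to 0.55 (adjusted p = 0.10) when libraries were scaled by their totals alone. That call was lost without any single library other than day 16 replicate 1, with edgeR adjusted p from 0.05 to 0.29, the highest of them without day 16 replicate 2. *RARA-AS1* overlaps its exons on the opposite strand.

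*RARB* (chr3:24687887-25597932) holds the DR5 shown above in a single promoter window and not in its others, and counts per gene do not tell its promoters apart. It gave 28.3 and 31.3 CPM on day 16, 40.0 and 35.9 on day 23, 32.7 and 47.8 on day 31, 32.7 and 35.0 on day 38, and 21.3 and 9.83 on day 45. Both day 45 libraries were below all others, but they were also more than a factor of 2 apart. *RARB* fell from day 38 to day 45 by 1.13 ± 0.29 in log2 units (edgeR adjusted p = 0.0078). Without day 45 replicate 2 the log2 fold change was -0.67 (edgeR adjusted p = 0.24), and without day 38 replicate 2 it was -1.08 (0.072). Day 45 was below day 16 by 0.95 ± 0.29 (log2, edgeR adjusted p = 0.015), and without day 45 replicate 2 the log2 fold change was -0.48 (0.33), while without day 16 replicate 2 the adjusted p was 0.065.

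*RARG* (chr12:53210567-53232980) gave 9.38 and 9.73 CPM on day 16, 9.31 and 6.97 on day 23, 3.17 and 5.0 on day 31, 8.85 and 8.26 on day 38, and 10.7 and 11.8 on day 45. The day 31 libraries were below all others and the day 45 libraries above all others. Neither step around day 31 passed, with log2 fold changes of -1.0 (edgeR adjusted p = 0.44) and 1.07 ± 0.49 (0.16).

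**Figure D2:**
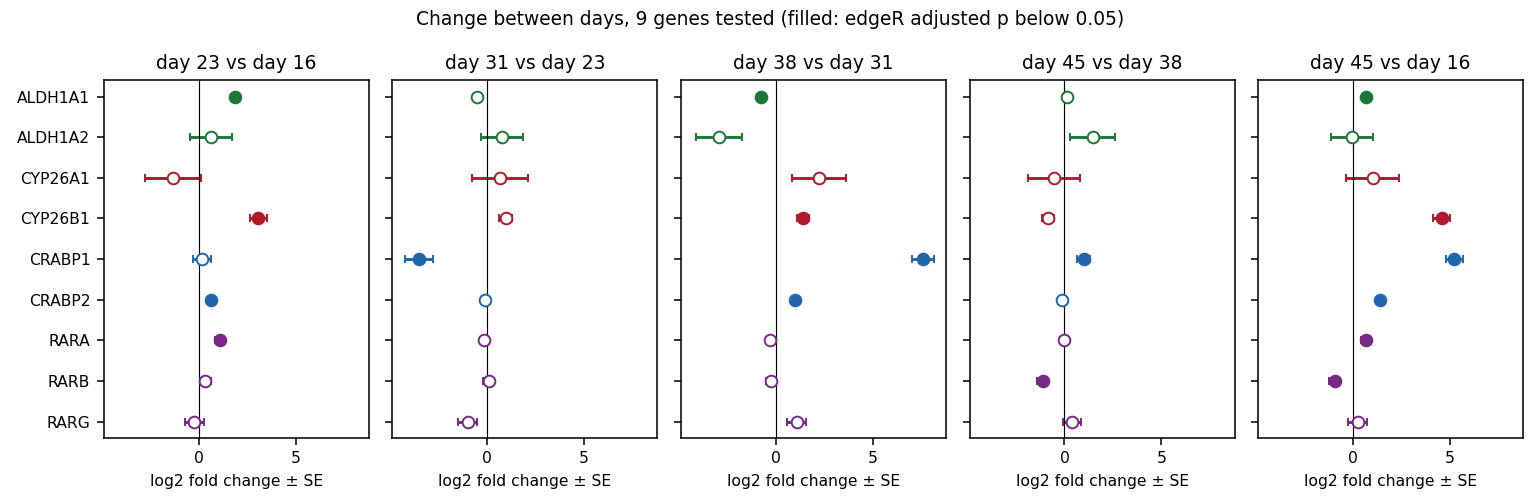
Log2 fold change (x axis) of the 9 genes tested (y axis) in 5 comparisons of days, 1 panel each, with bars for the approximate SE and filled symbols where the edgeR adjusted p was below 0.05. *CRABP1* from day 31 to day 38 lies furthest from 0, and its fitted value there depends on the prior count because day 31 held 3 and 0 counts.

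Ratios within a library do not depend on how libraries are scaled, but those per length depend on the exon lengths used. Per length, *CRABP1* made up 2.59% ± 1.34 (SD, n = 2) of the 2 CRABP transcripts on day 16, 2.01% ± 0.954 on day 23 and 0.160% ± 0.226 on day 31. At day 38 its share was 15.2% ± 0.501 and on day 45 28.1% ± 3.02, and the lowest of these 4 libraries (14.9%) was above the highest of the 6 earlier ones (3.54%). The ratio of *ALDH1A1* to *CYP26B1* per length was 83.5 and 24.3 on day 16, 14.2 and 17.9 on day 23, 5.90 and 5.36 on day 31, 1.28 and 1.19 on day 38, and 2.48 and 2.38 on day 45. It was lower on each day than on the one before up to day 38 and higher again on day 45, with no overlap between days, and the day 16 value rests on 4 and 16 counts of *CYP26B1*. Of the 3 RAR transcripts per length, *RARB* held 25.0 to 31.9% in the means of the first 4 days and 14.1% ± 6.90 on day 45. *RARG* held 18.8% ± 2.03 on day 16, 5.43% ± 0.886 on day 31 and 19.1% ± 2.01 on day 45, so the shares of the first and the last day overlapped while day 31 was apart from both.

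**Figure D3:**
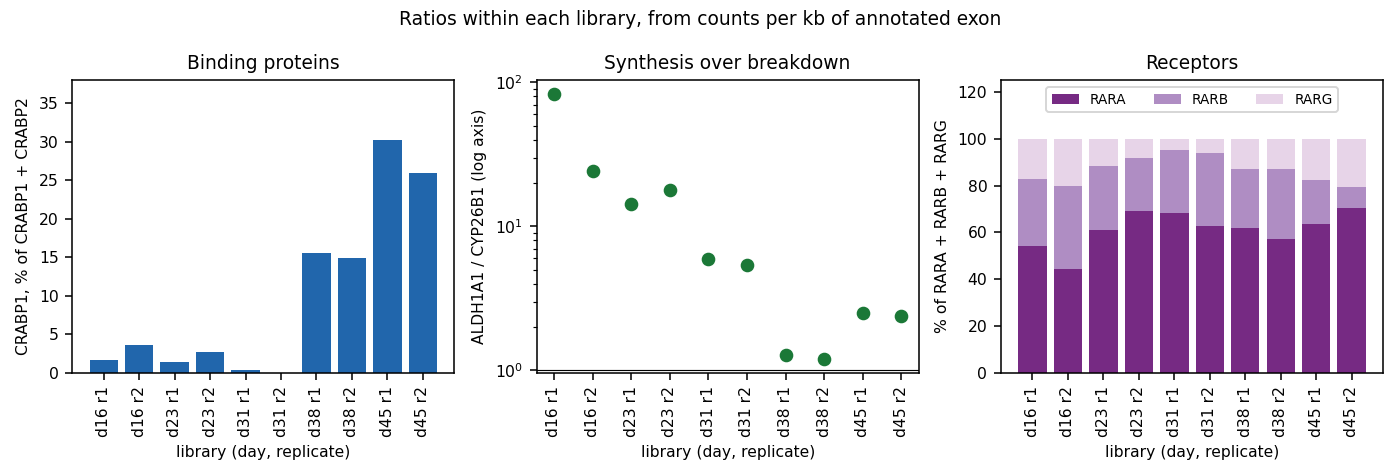
Ratios within each of the 10 libraries (x axis, day and replicate) from counts per kb of annotated exon: the share of *CRABP1* in both CRABP transcripts (left, percent, from 0), *ALDH1A1* over *CYP26B1* (middle, log axis, line at 1), and the shares of the 3 RARs (right, percent, from 0). The *CRABP1* share reached 25.9 and 30.2% on day 45, and the *ALDH1A1* to *CYP26B1* ratio was lowest on day 38, at 1.19 and 1.28.

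Genes with the most similar course were ranked among 13114 genes with a mean of at least 5 CPM, by the root mean square difference of log2 CPM centred on each gene's mean over the 10 libraries. Nearest to *CRABP2* were *CALR* (0.16), *CANX* (0.16) and *FOXK2* (0.17), of which the first and second encode chaperones of the endoplasmic reticulum. Nearest to *CYP26B1* were *PRDM1* (0.34), *RNASE1* (0.49) and *HGD* (0.50). For *CRABP1* the nearest were *KCNQ1* (0.95), *LGI3* (1.07) and *RNY1* (1.10). For *RARA* they were *RANBP3* (0.11), *PCNX3* (0.14) and *CC2D1A* (0.14), for *RARB* they were *LIX1L* (0.22), *CADM4* (0.23) and *ZFP64* (0.24), and for *ALDH1A1* they were *RAP2B* (0.23), *ZDHHC8P1* (0.25) and *LOC100132356* (0.25). The distance grows with the spread of the gene itself (SD of log2 CPM over the libraries 0.42 for *RARA*, 0.63 for *RARB*, 0.70 for *ALDH1A1*, 2.01 for *CYP26B1*, 3.0 for *CRABP1* and 0.61 for *CRABP2*), so it is not compared between these genes, and it describes these libraries only.

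The pathway also needs proteins that bring retinol into the cell, store it, oxidise it and partner the receptors. Of 37 further genes of this kind, 34 were tested. From day 16 to day 23, 3 were higher and 1 lower, where 10.9% of all genes passed (median log2 fold change 0.22, or 0.13 with genes at the floor set to their bounds). From day 23 to day 31, 2 were higher and 0 lower where 2.25% of all genes passed (0.02), and from day 31 to day 38, 2 were higher and 7 lower where 15.0% passed (-0.23). From day 38 to day 45, 3 were higher and 2 lower where 11.2% of all genes passed (-0.19), and between days 16 and 45, 7 were higher and 3 lower where 24.6% passed (0.01). The most abundant was *NCOR1*, a corepressor of unliganded receptors, at 306 to 400 CPM.

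*STRA6*, which takes up retinol from its plasma carrier, gave 64.7 and 29.7 CPM on day 16, 86.5 and 70.7 on day 23, 68.1 and 75.3 on day 31, 43.0 and 41.9 on day 38, and 19.3 and 17.9 on day 45. Both day 45 libraries were below all others. *STRA6* rose from day 16 to day 23 (by 0.74 in log2 units, edgeR adjusted p = 0.041), fell from day 31 to day 38 by 0.76 (adjusted p = 0.028) and fell from day 38 to day 45 by 1.19 (adjusted p = 0.0012). *TTR*, the plasma partner of the retinol carrier, rose to 57.5 and 54.0 CPM on day 31 and fell to 4.97 and 3.38 CPM on day 38 (log2 fold change -3.73, edgeR adjusted p = 2.4e-06). The carrier itself, *RBP4*, was at 0 counts on day 16 and at least 16.3-fold higher on day 45 (edgeR adjusted p = 0.00098).

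Among the listed genes that interconvert retinol and retinaldehyde, *DHRS3*, *RDH11*, *RDH10* and *DHRS9* passed in at least 1 step. *ADH1A*, *ADH1B*, *ADH4*, *ADH5*, *RDH5*, *RDH12*, *RDH13*, *RDH14*, *RDH16* and *DHRS4* passed in none of the comparisons. These genes were not tested as a group. *DHRS3*, which turns retinaldehyde back to retinol, was at 16.0 and 17 CPM on day 23 and at 48.3 and 65.4 CPM on day 31 (log2 fold change 1.78, edgeR adjusted p = 8.2e-05). *RDH11*, a retinal reductase, had daily means of 60.9 CPM on day 31 and 102 CPM on day 38 (log2 fold change 0.75, edgeR adjusted p = 0.0034). *RDH10*, which oxidises retinol in the embryo, rose from a mean of 31.6 CPM on day 38 to 63.9 CPM on day 45 (log2 fold change 1.02, edgeR adjusted p = 0.0062). From day 31 to day 38 *DHRS9* was at least 14.6-fold higher (2.48 and 7.10 CPM on day 38, 7.56-fold for replicate 1 alone, edgeR adjusted p = 0.0035), and the carotenoid-cleaving enzymes *BCO1* and *BCO2* fell by 3.07 (0.0014) and 2.01 (0.012) on the log2 scale. *BCO2* rose again from 2.60 to 8.60 CPM between days 38 and 45 (log2 fold change 1.73, edgeR adjusted p = 0.042). *ADH1C*, an alcohol dehydrogenase gene, had 0 CPM on day 16 and was at least 6.59-fold higher on day 45 (edgeR adjusted p = 0.0086). Exons of other genes overlap those of *RDH10*, *RDH11*, *BCO1* and *BCO2*, so the counts of these genes are uncertain.

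Of the same list, *LRAT*, *NCOA2* and *PPARD* passed as well. The coactivator genes *NCOA1* and *NCOA3* passed in none of the comparisons of one day with another. *LRAT*, which esterifies retinol for storage, fell from a mean of 14.7 to 5.05 CPM between days 16 and 23 (log2 fold change -1.54, edgeR adjusted p = 0.019). *NCOA2*, a coactivator of nuclear receptors, rose from 190 to 311 CPM in the same step (0.71, adjusted p = 0.00026), but it fell from day 31 to day 38 and from day 38 to day 45, to 169 and then 127 CPM, and ended below day 16. *PPARD*, a nuclear receptor gene, rose from 40.8 to 66.8 CPM between days 38 and 45 (0.71, adjusted p = 0.046).

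The RXR partners differed in how they could be measured. *RXRA* stayed within daily means of 48.0 to 65.4 CPM and passed no comparison. *RXRG*, with daily means of 4.78 to 15.4 CPM, was at 18.5 and 12.2 CPM on day 31 and at 7.13 and 4.42 CPM on day 38 (log2 fold change -1.41, edgeR adjusted p = 0.045). *RXRB* had 0 to 16 counts per library, and 87.2% of the 50-base stretches of its transcripts also occur on alternate contigs of GRCh38. Whether the index used for alignment held those contigs is not given in the sources used here, so its level is not interpretable. The share was 0.577% for *RARB* and 0 for the other 9 genes of the synthesis, binding and receptor set.

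Further genes known to respond to retinoic acid formed a list of 21, of which 20 were tested. The synthesis, breakdown, binding and receptor genes were kept out of it, including the known targets *RARB* and *CYP26A1*. From day 31 to day 38 these 2 had log2 fold changes of -0.25 and 2.22, and neither passed. *STRA6* and *DHRS3* are in this list and in that of the handling genes above. From day 16 to day 23, 1 was higher and 1 lower where 10.9% of all genes passed (median log2 fold change -0.12), and from day 23 to day 31, 2 were higher and 0 lower where 2.25% passed (-0.09). From day 31 to day 38, 1 was higher and 9 were lower, with a median of -1.26 beside 0.00 for all genes and 15.0% of all genes called. Genes with a day at the floor enter that median by their fitted values, and with those genes at their bounds it was -0.95. From day 38 to day 45, 1 was higher and 2 lower where 11.2% of all genes passed (-0.18, or 0.00 with bounds), and between days 16 and 45, 2 were higher and 11 lower (-1.19, with and without bounds) where 24.6% of all genes passed (12.9% higher and 11.7% lower). The most abundant was *NRIP1*, a corepressor, with daily means of 152 CPM on day 31 and 113 CPM on day 38.

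The lower group from day 31 to day 38 was made up mostly of 3′ HOX genes, which give cells their position along the body axis. *HOXA4* had 65 to 207 counts in the 6 libraries of days 16 to 31 and 0 counts in the 4 libraries of days 38 and 45, a level on day 38 at least 54.3-fold below that of day 31 (edgeR adjusted p = 4.1e-09). *HOXA3* had 304 to 446 counts before and 0 to 4 after (edgeR adjusted p = 3.4e-14), and *HOXA2*, *HOXA5*, *HOXB2*, *HOXB3* and *HOXB4* were lower as well. *NRIP1* and *STRA6* completed the 9. Exons of other genes overlap those of *HOXA3*, *HOXA4*, *HOXB2*, *HOXB3*, *HOXB4*, *NRIP1* and *STRA6*, so the counts of these genes are uncertain. None overlap those of *HOXA2* or *HOXA5*. *MEIS2*, a homeobox gene that is also overlapped, fell from 68.0 to 46.9 CPM between days 38 and 45 (log2 fold change -0.54, edgeR adjusted p = 0.043).

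*TGM2*, a transglutaminase gene induced by retinoic acid in many cells, went the other way. It gave 9.51 and 5.66 CPM on day 16, 2.22 and 1.37 on day 23, 4.91 and 6.63 on day 31, 25.2 and 17.7 on day 38, and 56.2 and 44.5 on day 45. Days 16 and 31 overlapped, day 23 was below all others, and day 45 was above all others. *TGM2* fell from day 16 to day 23 by 2.07 in log2 units (edgeR adjusted p = 0.00085) and rose in each later step, by 1.67 (0.026), 1.89 (0.00027) and 1.23 (0.014). Exons of *RPRD1B* overlap those of *TGM2* on the opposite strand, so the counts of *TGM2* are uncertain.

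**Figure D4:**
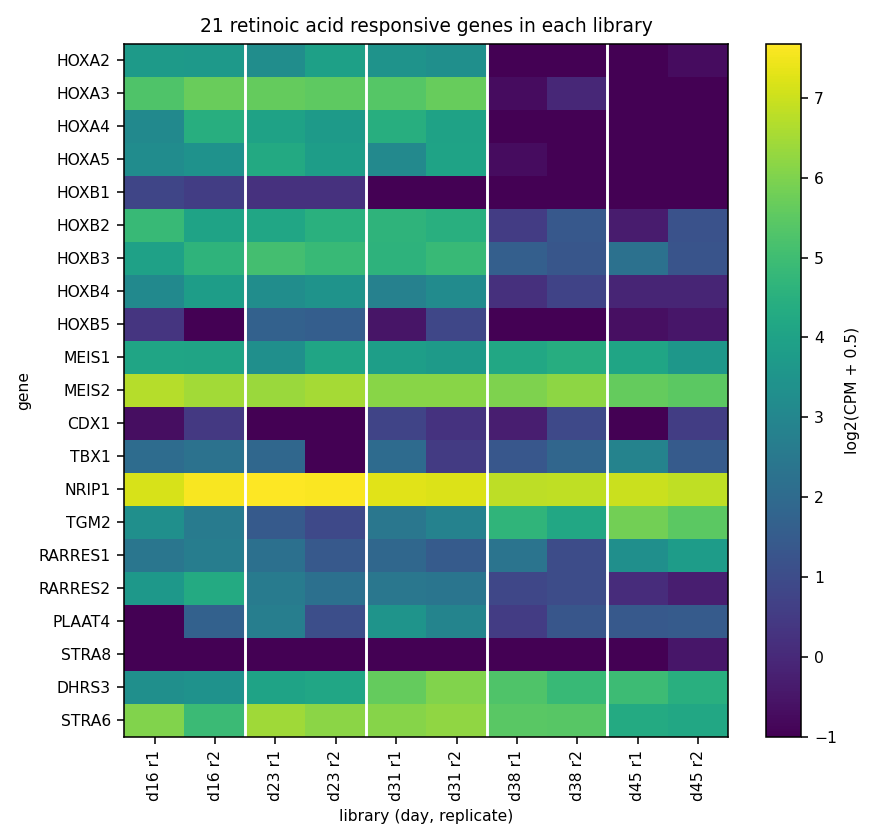
Log2(CPM + 0.5) as colour for 21 retinoic acid responsive genes (rows) in each of the 10 libraries (columns, day and replicate). The rows of *HOXA3* and *HOXA4* go from bright to dark between days 31 and 38, and the row of *TGM2* brightens to 56.2 and 44.5 CPM on day 45.

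Markers of thyroid follicular cells and of other cells were read beside these genes. In the 5 comparisons given next, 10.9, 2.25, 15.0, 11.2 and 24.6% of all genes passed in either direction. Over the steps 16 to 23, 23 to 31, 31 to 38 and 38 to 45 and over days 16 to 45, the mesenchymal list of 10 gave 4, 1, 4, 3 and 8 genes higher and 2, 1, 2, 0 and 1 lower, with medians of 0.38, 0.08, 0.69, 0.11 and 1.68 on the log2 scale (here and for the next lists with genes at the floor set to their bounds). Its most abundant gene was *COL3A1*, and it had summed levels of 978 and 1210 CPM on day 16 and 4780 and 3870 CPM on day 45. *DCN* rose from 5.88 CPM on day 16 (2.28 and 9.48 CPM in the libraries) to 130.0 CPM on day 45, while *PRRX1* fell from 39.1 to 8.43 CPM. The thyroid list gave 6, 0, 5, 2 and 6 higher and 3, 0, 0, 3 and 3 lower of 11 (medians 0.64, 0.05, 0.37, 0.01 and 0.44). Beside *TG*, *DUOX2* rose from 3.77 CPM on day 16 to 226 on day 45 and *DIO2* from 44.9 to 648, *TSHR* rose from 13.2 to 71.6 CPM between days 16 and 23, and *SLC5A5* rose from 0.756 to 6.4 CPM between days 31 and 38 after a fall between days 16 and 23. *NKX2-1*, *HHEX* and *FOXE1* fell from 143 to 62.4, from 283 to 155 and from 373 to 211 CPM between days 38 and 45. The neural list gave 1, 0, 1, 0 and 3 higher and 0, 0, 1, 0 and 1 lower of 8 (medians 0.37, 0.03, 0.00, 0.16 and 1.90), with sums of 10.0 to 52.5 CPM. *DCX* rose from 1.92 to 16.0 CPM between days 16 and 23, and *ELAVL3* and *STMN2* were at least 12.8-fold and 13-fold higher on day 45 than on day 16. For *STMN2* the day 45 libraries were at 8.85 and 0.873 CPM, and with replicate 2 alone the bound was 2.33-fold, while for *ELAVL3* they were at 3.34 and 6.22 CPM, with a bound of 8.92-fold for replicate 1 alone. The forebrain list gave 0 of 5 tested throughout, with medians of 0.00, -0.01, 0.90, -0.69 and -0.81, sums of 1.22 to 10.1 CPM and *SIX3* as its most abundant gene.

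The lung and airway list summed to 43.5 and 27.0 CPM on day 16, 194 and 178 on day 23, 539 and 563 on day 31, 68.9 and 59.8 on day 38, and 132 and 109 on day 45. *SFTPB*, its most abundant gene over the libraries, held 165 and 149 CPM on day 23 and 499 and 502 on day 31 but 3.55 and 1.48 on day 16, 6.59 and 8.61 on day 38 and 46.2 and 50.2 on day 45, and *SFTPC* was at or under the floor in every library. The list gave 2, 2, 1, 3 and 4 genes higher and 1, 0, 2, 1 and 1 lower of 9 tested in the same 5 comparisons (medians -0.01, 1.05, -1.05, 0.14 and 0.68). *MUC5AC*, a goblet cell mucin gene, rose from 1.17 to 25.8 CPM between days 31 and 38 and fell to 1.25 CPM by day 45. *KRT5*, a basal cell keratin gene, was at least 27.8-fold higher on day 31 (3.99 and 14.8 CPM, 11.8-fold for replicate 1 alone) than on day 23 and rose from 10.9 to 32.5 CPM between days 38 and 45. *SCGB3A2* rose from 3.17 to 20.2 CPM between days 38 and 45, with 30.6 and 9.72 CPM in the day 45 libraries. *TP63* fell from 12.9 to 3.11 CPM between days 16 and 23, and *FOXJ1* from 20.4 to 5.94 CPM between days 31 and 38. The pluripotency list summed to 186 and 175 CPM on day 16 and to 6.24 and 9.50 CPM on day 45, mostly *DPPA4*, with 0 higher throughout and 1, 0, 2, 1 and 3 lower of 4 tested (medians -0.38, -0.21, -2.16, -1.31 and -4.16). *LIN28A* fell from 33.2 to 1.13 CPM between days 16 and 23, and *TDGF1* was at least 17.3-fold lower on day 45 than on day 16. The endothelial list, led by *KDR*, summed to 17.1 to 54.5 CPM and gave 1, 0, 0, 0 and 1 higher and 0, 0, 2, 0 and 0 lower of 5 (medians 0.73, 0.02, -0.35, 0.69 and 1.59). *TEK* rose from 1.92 to 11.8 CPM between days 16 and 23 and fell from 21.5 to 6.74 CPM between days 31 and 38. The part of these cell types in the levels of the retinoic acid genes was not tested.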

How the data were processed

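Bulk RNA-seq libraries were made by the authors from sorted NKX2-1 GFP+ cells and sequenced as paired-end reads. Per the paper's methods and the submitters' processing notes, reads were trimmed with Trimmomatic, aligned to GRCh38 with HISAT2 and counted per gene with HTSeq on the Ensembl annotation GRCh38.p13. The authors deposited raw counts, whole numbers with no normalization, for 28265 gene symbols per library. Strand setting and alternate contigs are not given in the sources used here, and no molecular identifiers are used, so PCR copies count as molecules. Days and replicates were taken from the labels, and the medium of days 16 and 45 from the paper's schedule.

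A gene was tested if 2 or more libraries held 5 or more counts of it, which kept 21014 genes for edgeR 4.0.16 and limma 3.58.1 in R 4.3.3 (glmQLFit and glmQLFTest, TMM factors, 1 mean per day over 10 libraries, 5 residual degrees of freedom). Adjustment was by Benjamini-Hochberg and the threshold was 0.05. They measure the spread between 2 libraries per day, which the paper calls biological replicates of pooled wells. Standard errors are approximate (log2 fold change over the square root of F). Replicates of a day differed by more than sampling noise (chi-square per degree of freedom 8.38 to 13.7). The floor of 3 counts covers counting error only.

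The genes and lists were chosen with earlier results of these data known. All 10 retinoic acid genes are named, and from each list up to 4 genes per comparison among those that passed, by size of log2 fold change, and its most abundant gene. *SFTPC*, *NKX2-1*, *PAX8*, *RXRA*, *RXRB* and *NRIP1* and the HOX genes and others beyond those 4 were named after their values were seen. A few genes are not reported here and enter no list. Positions and exon lengths came from GENCODE 44, which held 90.1% of the symbols. Promoters came from RefSeq. The procedure was tested on simulated data. Alternatives were DESeq2 1.42.0, library totals without TMM, upper-quartile factors, no filter, filterByExpr, the 4 libraries compared alone, the replicate number as a block and leaving out each library.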

Additional observations from a re-analysis of the deposited data

How the results depend on the processing

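DESeq2, other scalings and filters, fits restricted to the 4 libraries compared, a replicate block, and leaving out each library were applied to the counts of the 9 genes and of all genes that passed and to each of the 9 genes. The counts for the other gene lists were not recomputed. The rises of *ALDH1A1* and *CYP26B1* from day 16 to day 23 and of *CYP26B1*, *CRABP1* and *CRABP2* from day 31 to day 38 passed under each of these. Without 1 library the log2 fold changes ran from 1.81 to 1.97 (*ALDH1A1*), 2.43 to 4.34 and 1.31 to 1.47 (*CYP26B1*), 6.71 to 11.16 (*CRABP1*) and 0.73 to 1.2 (*CRABP2*). The number of the 9 genes that passed became 0 from day 23 to 31 and 3 from day 16 to 45 with only the 4 libraries compared, and 1 from day 38 to 45 with filterByExpr. Leaving out 1 library gave 3 to 4 genes (day 16 to 23), 0 to 1 (23 to 31), 3 to 5 (31 to 38), 0 to 3 (38 to 45), 3 to 5 (16 to 45) and 5 to 6 (any day), and among all genes 1350 to 2383, 206 to 646, 1764 to 3613, 1166 to 2815, 3969 to 5222 and 6331 to 7762. The day left with 1 library is assumed there to vary like the others. Signs turned only for differences that had not passed. *RARA* from day 38 to 45 was 0.04 with DESeq2, 0.05 with library totals, 0.05 with upper-quartile factors and 0.02 with 4 libraries. Without 1 library the ranges that crossed 0 were, from day 16 to 23, -0.22 to 3.4 (*ALDH1A2*) and -0.33 to 0.99 (*CRABP1*), from day 23 to 31, -0.33 to 5.62 (*CYP26A1*), -0.08 to 1.27 (*ALDH1A2*) and -0.22 to 0.33 (*RARB*), from day 31 to 38, -0.50 to 0.04 (*RARB*), from day 38 to 45, -0.12 to 0.12 (*RARA*), -0.32 to 0.15 (*CRABP2*) and -0.14 to 0.33 (*ALDH1A1*), and from day 16 to 45, -1.02 to 2.70 (*ALDH1A2*). *CYP26B1* from day 38 to 45 passed with no filter (edgeR adjusted p = 0.042) and with 4 libraries (0.013). Replicate numbers did not pair samples (deviations of same-numbered libraries correlated at -0.03 to 0.02, and 0 of 10 day pairs were over 0.1). With the replicate block, 4, 1, 4, 3, 6 and 6 of the 9 genes passed and 2703, 678, 3472, 2691, 5460 and 8239 of all genes, with *CYP26B1* from day 38 to 45 added at -0.87 (edgeR adjusted p = 0.035). Depth limits *ALDH1A3*, with 3 or fewer counts in 9 of 10 libraries, and the low counts of *CYP26A1* and *ALDH1A2*. With 2 libraries a day, the spread was estimated jointly over the days, with 5 residual degrees of freedom. No day has more than 2 libraries, so no search for outlying libraries within a day was made.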
